A study of Homo sapiens with 16 samples.

Results

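The promoters described here belong to the genes of the RNA polymerase II initiation machinery: the TBP-associated factors (TAF), the general transcription factors TFIIA, TFIIB, TFIIE, TFIIF and TFIIH (GTF2), the Mediator subunits (MED), the polymerase II subunits (POLR2) and TBP itself. They were picked out by gene symbol, from groups of genes chosen with earlier results of these data known, and make up 85 of the 21857 promoters in the data. These comprise 24 TAF, 13 GTF2, 31 MED and 16 POLR2 rows and the row of TBP, for 83 gene symbols in 84 distinct regions on 22 chromosomes. The region of TAF9 is listed a second time with identical values, and is counted in both rows in medians and counts of promoters but once in sums. POLR2J2 has separate regions at different starts, and MED4-AS1, an antisense RNA of the MED4 locus, was taken because its symbol begins like a Mediator gene.

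Chromatin came from GM12878, an Epstein-Barr virus-transformed B-lymphoblastoid cell line of a single donor, either untreated or stimulated with heat-killed Salmonella typhimurium (HKST) for 20, 40 or 60 min. Cells were cross-linked with formaldehyde, and nuclei were digested with a light (20 U) or a heavy (200 U) amount of micrococcal nuclease (MNase), which cuts DNA that nucleosomes do not protect. Fragments of 140 to 200 bp in the 2 kb around each transcription start site (TSS) were enriched by sequence capture. Each of the 8 combinations of time and digest had 2 biological replicates, which the deposited tables pool, so the spread between replicates could not be computed and every interval given here covers counting error only. The intervals would be too narrow if PCR copies of a fragment were counted separately, which weighs most on bounds close to 0.

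Initiation begins when TFIID, which consists of TBP and the TAFs, engages the core promoter. TFIIA and TFIIB hold it there, TFIIF escorts the polymerase in, TFIIE recruits TFIIH, and TFIIH opens the DNA and phosphorylates the polymerase tail. Mediator bridges activators bound at enhancers to this assembly, and its head and middle modules contact the polymerase directly. Most of these genes are expressed in every cell type from CpG-rich promoters that have a nucleosome-free region (NFR) between a -1 nucleosome upstream and a +1 nucleosome downstream of the TSS. A fragment recovered more readily after light digestion is called MNase-sensitive, and one that persists through heavy digestion MNase-resistant.

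The 200 bases upstream of the TSS, the window in which the -1 nucleosome was measured, are shown for 6 of these promoters. TBP is shown because it nucleates the complex, and POLR2D and GTF2F1 because they had the highest and the lowest difference after 60 min among promoters with at least 5 fragments in every table used. GTF2B, MED21 and TAF11 were added after their values were seen, GTF2B as the best covered promoter after 20 min that moved by more than 1 log2 unit. The sequences were read from GRCh37 (hg19), 5′ to 3′ on the strand of the gene: TBP at chr6:170863221-170863420 (plus), GTF2B at chr1:89357302-89357501 (minus), GTF2F1 at chr19:6393292-6393491 (minus), TAF11 at chr6:34855849-34856048 (minus), MED21 at chr12:27175255-27175454 (plus) and POLR2D at chr2:128615730-128615929 (minus). Capitals mark exact matches, on either strand, to the TATA box TATAAA, the inverted-repeat cAMP response element TGACGTCA, the CCAAT box, the GC box GGGCGG, the ETS core CCGGAAG, the NRF1 core GCATGCGC or the YY1 core AAGATGGCG.
TBP: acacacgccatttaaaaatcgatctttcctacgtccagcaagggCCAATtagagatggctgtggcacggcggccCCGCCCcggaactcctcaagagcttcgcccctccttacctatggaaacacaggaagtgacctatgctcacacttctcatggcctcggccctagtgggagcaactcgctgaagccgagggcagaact
GTF2B: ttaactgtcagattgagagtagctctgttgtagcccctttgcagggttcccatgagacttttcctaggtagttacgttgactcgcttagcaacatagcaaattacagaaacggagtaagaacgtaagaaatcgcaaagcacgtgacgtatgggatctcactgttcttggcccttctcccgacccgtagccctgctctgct
GTF2F1: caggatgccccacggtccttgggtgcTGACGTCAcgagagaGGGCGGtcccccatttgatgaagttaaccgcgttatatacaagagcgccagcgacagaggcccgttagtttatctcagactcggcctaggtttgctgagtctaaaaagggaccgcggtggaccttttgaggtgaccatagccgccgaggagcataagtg
TAF11: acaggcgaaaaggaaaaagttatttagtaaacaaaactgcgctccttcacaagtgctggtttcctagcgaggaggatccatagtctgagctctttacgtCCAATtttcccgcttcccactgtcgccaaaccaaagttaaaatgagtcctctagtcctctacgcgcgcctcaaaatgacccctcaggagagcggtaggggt
MED21: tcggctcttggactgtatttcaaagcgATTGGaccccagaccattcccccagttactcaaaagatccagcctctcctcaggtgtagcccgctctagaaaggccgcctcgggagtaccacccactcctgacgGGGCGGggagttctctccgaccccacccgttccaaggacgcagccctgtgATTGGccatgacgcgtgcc
POLR2D: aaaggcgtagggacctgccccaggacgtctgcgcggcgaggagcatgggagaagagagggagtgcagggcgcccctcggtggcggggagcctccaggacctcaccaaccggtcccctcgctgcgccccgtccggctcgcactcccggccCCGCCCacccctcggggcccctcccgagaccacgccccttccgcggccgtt

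In these letters, TBP held a CCAAT box at -156 and a GC box at -126, MED21 a GC box at -69 between CCAAT boxes at -173 and -19, and TAF11 a CCAAT box at -101. GTF2F1 held a cAMP response element at -174 ahead of a GC box at -159, and POLR2D a single GC box at -51. No motif was found in the GTF2B window, and no TATA box, ETS, NRF1 or YY1 core in any of the 6. GENCODE release 44, lifted to GRCh37, placed a transcript start of the gene exactly at the listed TSS for TBP, TAF11 and POLR2D, 24 bp away for MED21, 27 bp for GTF2B and 75 bp for GTF2F1. Exons of other transcripts of the same gene reach into the window at TBP, GTF2B and TAF11, whereas no exon or other gene overlaps it at MED21, POLR2D and GTF2F1.

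Over the 84 regions the promoters were no richer in GC than others (median 61.3% against 61% over 21816 regions) but held more CpG dinucleotides (median 17 against 12). GENCODE had a transcript beginning no more than 50 bp from the listed TSS at 91.7% of them, against 79.9% of all. The motifs differed in how common they were. A GC box was found in 58.3% against 46% of all regions, an ETS core in 16.7% against 7.87%, an NRF1 core in 8.33% against 2.48%, a cAMP response element in 5.95% against 1.70% and a YY1 core in 1.19% against 0.596%. The CCAAT box was found at the common rate (28.6% against 28.4%) and the TATA box in 3.57% against 7.92%. A cAMP response element reads the same on both strands and counts once, and a YY1 core can share its first 3 letters with the end of an ETS core. Within the machinery, CCAAT boxes were found in 11 of 23 TAF regions and 2 of 16 POLR2 regions, and NRF1 cores in 5 of 16 POLR2 regions and in none of the TAF regions. Those 5 were POLR2F, POLR2H and the related genes POLR2J, POLR2J2 and POLR2J3. The POLR2J genes lie near each other on chromosome 7 and may not count as independent regions. All motifs are letter matches in a fixed window, with no measure of binding.

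Some of these genes face a neighbour. In 14 of the 84 regions (16.7%, against 9.54% of all) a gene on the other strand started within 1 kb upstream. In 19 a protein-coding gene of the other strand overlapped the -1 window, a count that was not made over all promoters. The listed starts of MED20 and BYSL, for example, are 88 bp apart and those of POLR2F and C22orf23 20 bp apart. The -1 window of one thus covers the listed start of the other. GENCODE placed C22orf23 over the POLR2F window but no other gene over that of MED20.

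The depth of the tables, recovered from the smallest step of their values, was 9426000 to 10459000 fragments after light digestion and 5117000, 4121000, 3272000 and 7038000 after heavy digestion of untreated, 20, 40 and 60 min chromatin. All 85 rows were complete in 5 tables, but 74 in untreated heavy, 30 in 20 min heavy and 10 in 20 min light, which end partway through the promoters as received. The 11 promoters not analysed here against untreated chromatin include those of TAF1, TAF3, TAF6, TAF9B, MED12 and MED18. In the -1 window a typical member yielded few fragments, with a median of 11.6 in untreated light and 2.79 in untreated heavy digests and only 1 after 40 min and 3 after 60 min in heavy digests. No fragment was recorded there in any of the 5 complete tables at GTF2H2, MED13L, MED26, TAF5L and 1 of the POLR2J2 regions, and TAF1L had no value in that window. Counts need not be whole because a fragment near a window's edge is counted in part.

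Sensitivity was taken as log2 of the light over the heavy signal, each scaled to the depth of its table (rpm) after a pseudocount of 0.119 rpm, so that positive values denote MNase-sensitive and negative values MNase-resistant nucleosomes. The -1 window ran from -200 to 0 bp, the +1 window from 50 to 250 bp and the NFR window, which overlaps the -1 window, from -100 to 50 bp. A promoter was measured when each condition held at least 1 fragment, light and heavy together. Differences between conditions are later minus untreated on this log2 scale, and the intervals beside them are exact 95% conditional intervals of the fragment counts without the pseudocount.

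In untreated cells the initiation machinery promoters were deeply depleted around the TSS and MNase-sensitive in the -1 window. The averaged profile of 73 regions reached its lowest value, 0.315 rpm of light and heavy signal together, at -30 bp, whereas the profile of all 16241 regions fell only to 1.17 rpm at -80 bp. The -1 peak stood at -210 bp in both, just upstream of the -1 window, and the +1 peak at 140 bp in the members and 150 bp in all. Values given for the -1 nucleosome thus come from the downstream flank of that averaged peak and from part of the NFR. Relative to the mean over 2 kb, the NFR signal of members had a median of -2.60 on the log2 scale against -1.87 for all promoters. The TAF, GTF2, MED and POLR2 medians, -2.53, -2.87, -2.76 and -2.40, each lay below the latter. The plot of average profiles shows the depletion in both digests.

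**Figure D1:**
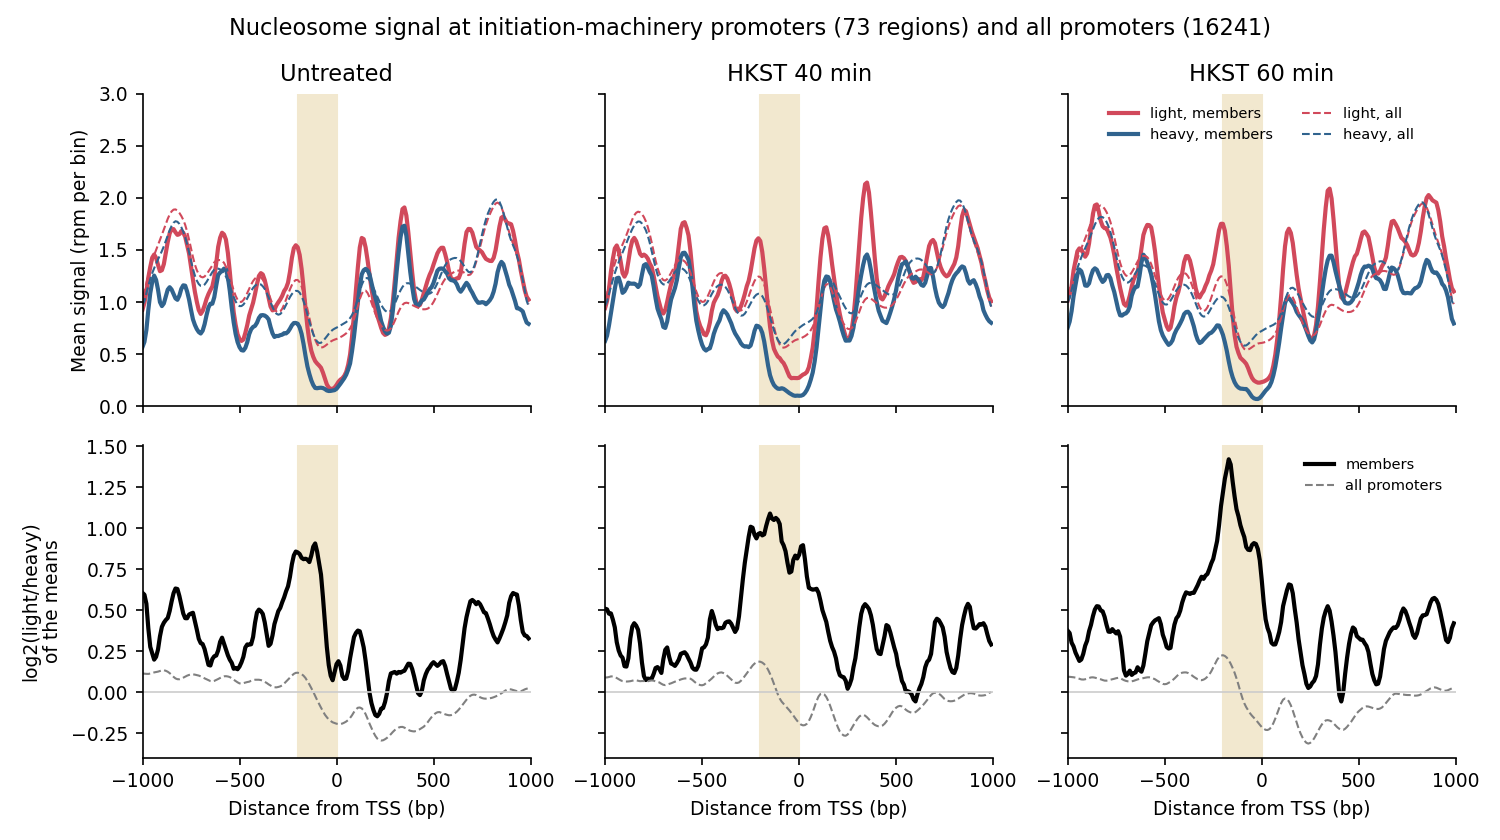
Average nucleosome signal (upper row, rpm per 10 bp bin) and log2 of the light over the heavy mean (lower row) against distance from the TSS in bp, for 73 initiation machinery regions (solid) and 16241 promoters (dashed) in untreated cells and after 40 and 60 min of HKST; the shaded band is the -1 window. The solid light line stands above the heavy line around -210 bp, and the peak of the members' ratio is 0.91 in untreated cells, 1.09 after 40 min and 1.42 after 60 min.

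The -1 sensitivity of untreated members had a median of 0.83 (n = 65), with 52 of 65 (80%) above 0, against a median of 0.12 and 55.7% above 0 over 14335 promoters. All subgroups lay on the same side, with medians of 0.96 for TAF, 0.59 for GTF2, 0.82 for MED and 0.83 for POLR2. The +1 nucleosome did not share this, since its median was -0.03 in members and -0.21 over all promoters. Across the whole 2 kb, members had a median of 0.33 and all promoters 0.07. Sensitivity moved with the base composition of the window: over all promoters its median went from 0.55 in the GC-poorest quartile to -0.24 in the GC-richest, and in members from 1.25 to 0.07. In each of these quartiles the members' median was the higher. All promoters here include those of genes not expressed in these cells. Most of the RNA polymerase I and III promoters described below were also above 0 when untreated, so a sensitive -1 window is not particular to the initiation machinery.

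Among the better covered promoters, with at least 5 fragments in both untreated tables, the Mediator genes spanned the widest range. MED20, a head module subunit, gave 70.7 light and 5.58 heavy fragments (sensitivity 2.37) and MED25, which binds activators, 42.2 and 5.00 (1.79). MED14, the scaffold that joins the modules, gave 13 and 12.7 (-0.73) and the middle module subunit MED31 gave 53.7 and 43.8 (-0.60). The MED20 nucleosome was thus largely lost in the heavy digest, while those of MED14 and MED31 were kept there.

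The other subgroups spread less. Among the TAF genes, TAF9, a histone-fold subunit that TFIID shares with the SAGA coactivator, gave 94 light and 19 heavy fragments (1.29) and TAF13 36.4 and 7.33 (1.18), while TAF1B, a subunit of the RNA polymerase I factor SL1, gave 16.5 and 5.50 (0.52) and TAF10 23.0 and 6.83 (0.67). GTF2F1 and GTF2F2, which encode the pair of TFIIF subunits, differed, with 73.1 and 12 fragments (1.53) against 21.4 and 6.83 (0.59). GTF2B, which encodes TFIIB, gave 22.2 and 5.67 (0.85), and GTF2H3, a TFIIH core subunit, was on the resistant side with 49.3 and 31.4 (-0.26). Of the polymerase genes POLR2C was the most sensitive, with 35.2 and 5.33 (1.48), POLR2F, a subunit of all 3 nuclear polymerases, gave 45.1 and 12.5 (0.83), and POLR2D, which encodes part of the polymerase stalk, was the most resistant of all these promoters with 10.5 and 16.7 (-1.31). No single promoter of POLR2A, the catalytic subunit (4.42 and 1.08), or of TBP (1.33 and 0.25) was covered well enough to place it.

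After 20 min of HKST only 10 of the promoters, all on chromosomes 1, 10 and 11, could be compared, and 8 were measured. Their median -1 sensitivity was 0.65 higher than in untreated cells, against 0.14 over 2452 promoters. The 3 highest values were those of GTF2B, TAF5 and MED8. GTF2B had 22.2 light and 5.67 heavy fragments untreated and 52.1 and 3.67 after 20 min, a difference of 1.24 (-0.85 to 3.79). TAF5, a scaffold subunit of TFIID, went from 5.33 and 1.58 to 17.3 and 0.583, a difference of 1.51 (-2.30 to 8.31), and MED8, of the Mediator head, from 2.67 and 1.83 to 5.33 and 0.167, a difference of 1.22. In all of them the light count was higher and the heavy count lower, and the interval of each included 0.

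TAF13 and TAF12 stood on either side of the median. TAF13 had 36.4 and 7.33 fragments untreated and 42.6 and 2.58 after 20 min (0.95, -1.21 to 3.73), and TAF12 18.3 and 4.58 against 16.3 and 3.08 (-0.05, -2.48 to 3.04). MED19 differed by 0.35, TAF10 by -0.33 (-2.40 to 1.56) and GTF2H1, a TFIIH core subunit, by -0.67 (-4.81 to 2.43). POLR2L and TAF5L were below 1 fragment and not measured. Of the 8, 3 were higher by at least 1 log2 unit, where 13.5% of all promoters were, and none was lower by as much, where 5.91% were. No counting interval left out 0 in either direction, against 2.04% above and 1.99% below over all promoters. Summed over the 10 regions, the light signal went from 13.1 to 17.6 rpm and the heavy signal from 5.86 to 5.10 rpm, a difference in sensitivity of 0.63 (-0.30 to 1.58), against 0.11 for all promoters. The light part, scaled to depth, was higher by 0.43 (0.10 to 0.77), while the heavy part differed by -0.20 (-1.08 to 0.65). The +1 window of the same regions was better covered and rose by 0.69 (0.28 to 1.10), against 0.10 for all promoters, with a light signal of 38.8 and then 43.4 rpm and a heavy signal of 36.3 and then 25.2 rpm.

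After 40 min 64 of 74 promoters were measured, with a median difference of 0.44 (49 above 0 and 15 below), against 0.11 over 13992 promoters. Of the 64, 12 were higher by at least 1 log2 unit, against 13.1% of all promoters, and 3 were lower by as much, against 6.34%. No interval left out 0, against 1.72% above and 1.49% below over all promoters. The 12 comprised 5 MED, 3 POLR2, 2 GTF2 and 2 TAF promoters, and 11 of them had under 5 heavy fragments in both tables, so that single promoters could not be called at this depth. The 14 promoters with at least 5 fragments in every table, which leaves out those whose heavy count became low, had a median of -0.27. GTF2E1, the larger TFIIE subunit, had the highest value, with 1.17 light and 2.58 heavy fragments untreated and 4.83 and 0 after 40 min.

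The sum over the promoters was more precise. The 72 regions gave 1322 light and 368 heavy fragments untreated and 1382 and 203 after 40 min, so that the summed sensitivity went from 0.92 to 1.24, a rise of 0.32 (0.05 to 0.60) against 0.05 for all promoters. The rise exceeded that of the promoters outside the group by 0.28 (0.01 to 0.55). The lower bounds lay close to 0, and without TAF9, the promoter with the most fragments, the rise was 0.38 (0.09 to 0.67). In a window from -250 to -100 bp the change was 0.23 (-0.01 to 0.46), so that the call did not hold there.

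After 60 min, with the deepest heavy table, the rise was clearer. The same regions gave 1584 light and 386 heavy fragments, a summed sensitivity of 1.52 and a rise of 0.60 (0.36 to 0.84) against 0.06 for all promoters. The difference from promoters outside the group was 0.54 (0.31 to 0.77). The light signal rose by 0.21 (0.10 to 0.31), to 157.1 rpm, and the heavy signal changed by -0.39 (-0.60 to -0.18), from 71.9 to 54.8 rpm, so that both digests contributed. Without TAF9 the rise was 0.67 (0.42 to 0.91), and from -250 to -100 bp it was 0.38 (0.18 to 0.58). Over the 83 regions of both later time points, 60 min lay above 40 min by 0.23 (-0.01 to 0.46), an interval that includes 0. The comparisons share the untreated tables, so they are not independent of each other.

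**Figure D2:**
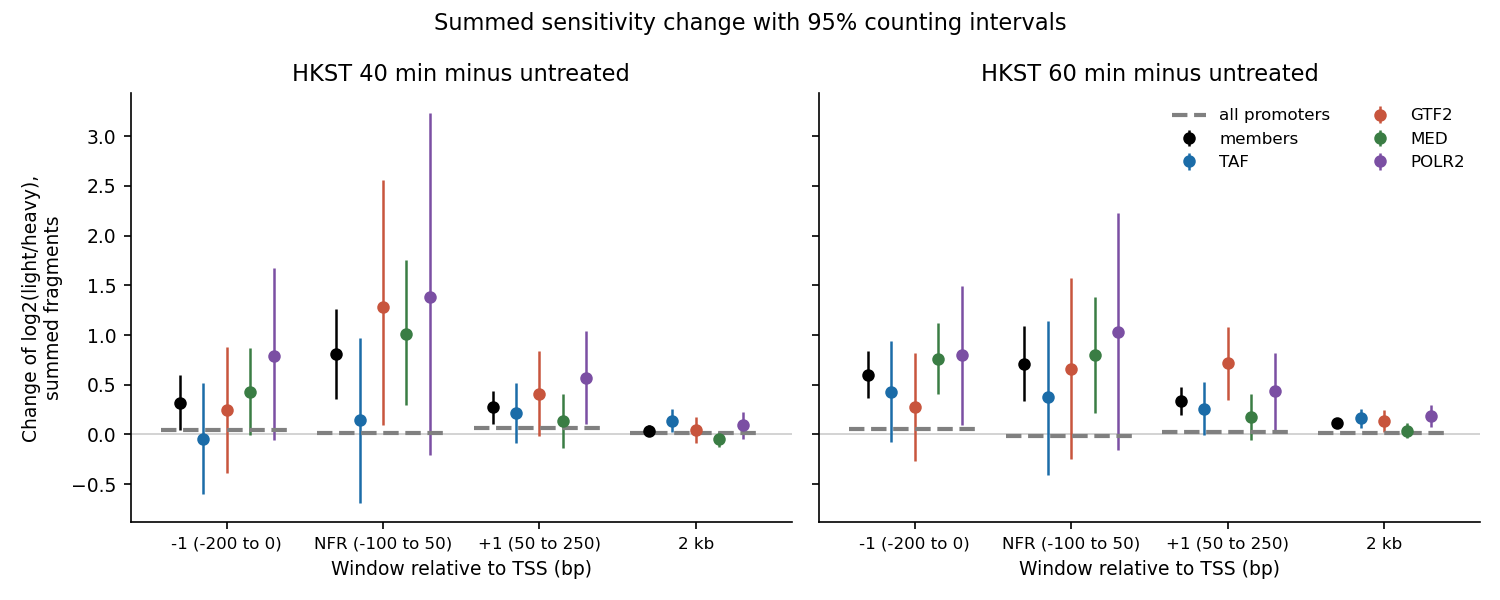
Change of log2 of light over heavy, from summed fragments, in 4 windows for all member regions and each subgroup after 40 min (left) and 60 min (right) of HKST, with bars for 95% counting intervals and dashes for all promoters. In the -1 window the members stand at 0.32 and 0.60 while the dashes lie at 0.05 and 0.06.

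Promoter by promoter, the median difference at 60 min was 0.39 over 62 measured promoters (43 above 0 and 19 below), against 0.08 over 14057. Of the 62, 17 were higher by at least 1 log2 unit, against 10.9% of all promoters, and 2 were lower by as much, POLR2J and MED1, against 4.88%. The interval of 1 promoter, MED21, lay above 0, against 2.40% of all promoters, and none lay below, against 2.23%. The 17 comprised 7 MED, 4 GTF2, 3 TAF and 3 POLR2 promoters, 13 of them with under 5 heavy fragments in both tables and 2 of them, MED21 and POLR2D, with at least 5 in every table. Between the time points, 38 of the 62 promoters were above 0 at both 40 and 60 min, 10 were below 0 at both, and 7 were higher by at least 1 at both. The same counts were not made over all promoters, so this overlap cannot be set against a common rate. Both differences also subtract the same untreated values.

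The 64 and 62 promoters passed a minimum on fragments, and the changes moved with coverage and base composition. Over all promoters at 60 min the median went from 0.25 in the quartile with the least -1 signal to -0.10 in that with the most, and from -0.10 in the GC-poorest to 0.15 in the GC-richest quartile. In members it went from 0.46 (26 promoters) to -0.17 (8 promoters) with signal, and with GC it was 0.76 (11), 0.28 (19), 0.78 (20) and -0.05 (12). The members' median was thus above that of all promoters in 3 of the 4 quartiles of each measure, and below it where signal or GC was highest. Whether these properties account for the difference was not tested.

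Mediator gave the largest and best counted subgroup. Over 28 regions the untreated light signal of 60.6 rpm was 61.1 rpm after 40 min and 73.4 rpm after 60 min, and the heavy signal went from 32.6 to 24.4 and then 23.3 rpm. The summed sensitivity thus changed by 0.43 (-0.00 to 0.87) at 40 min and rose by 0.76 (0.40 to 1.12) at 60 min. Without MED20 the 40 min change was 0.53 (0.08 to 0.98), and from -250 to -100 bp the 60 min rise was 0.44 (0.12 to 0.75). The medians of single promoters were 0.57 and 0.62, with 21 of 26 and 16 of 25 above 0. MED21, of the middle module, had 63.6 light and 20.3 heavy fragments untreated, 59.5 and 8.42 after 40 min and 88.3 and 16.2 after 60 min. Its heavy signal was lower at both times and its light signal higher at 60 min, for differences of 0.52 (-0.75 to 2.12) and then 1.11 (0.04 to 2.35). MED14 lay on the resistant side untreated and on the sensitive side later, with 13 and 12.7 fragments, then 18.3 and 5.17, then 19.3 and 11.7, for differences of 0.97 (-0.77 to 3.39) and 0.90 (-0.63 to 2.78).

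The lowest Mediator values among the well covered promoters were those of MED20 and MED12L. MED20, the most sensitive in untreated cells, went from 70.7 and 5.58 fragments to 54.6 and 6.17 at 40 min (-0.93, -2.95 to 1.02) and 104.3 and 12.8 at 60 min (-0.08, -1.91 to 1.42). MED12L, a paralog of the kinase module subunit MED12, stayed resistant, with 11.1 and 9.08, then 7 and 6.58, then 8.25 and 12.1 fragments (-0.58, -3.17 to 1.39, and -0.30, -2.54 to 1.59). MED29 had the highest 60 min value in the subgroup, 1.81 (-0.20 to 6.09), with 19 and 5.00 fragments untreated and 35 and 1.92 after 60 min. PAF1, the elongation factor gene that starts close to it on the other strand, had 10.0 and 4.17 and then 26.9 and 1.00 in its own -1 window, which shares bases with that of MED29.

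The polymerase subunit promoters had the highest summed values but few fragments. Their 14 regions gave a light signal of 18.5 rpm untreated, 20.48 rpm after 40 min and 20.04 rpm after 60 min, and a heavy signal of 9.58, 6.11 and 5.97 rpm from 49, 20 and 42 fragments. The summed sensitivity changed by 0.79 (-0.05 to 1.68) at 40 min and rose by 0.80 (0.10 to 1.50) at 60 min. The medians were 0.33 and 0.35. POLR2D was the clearest single case. It went from 10.5 and 16.7 fragments to 9.17 and 4.75 and to 14.6 and 8.92, for differences of 0.87 (-1.30 to 3.14) and 1.46 (-0.04 to 3.61). These counts are not scaled to depth, which was lowest in the 40 min heavy digest. From a sensitivity of -1.31 untreated, its value stayed on the resistant side at 40 min and passed 0 only at 60 min. POLR2F gave 45.1 and 12.5, 29.6 and 3.58, and 40.2 and 10.1 fragments (0.42 and 0.43), and POLR2C 35.2 and 5.33, 41.5 and 5.67, and 35.6 and 5.33 (-0.31 and 0.29). POLR2K, a small subunit of all 3 nuclear polymerases, held the most fragments of the subgroup (26 and 3.75, 52.2 and 1.00, 50 and 7.58), and without it the summed change was 0.55 (-0.33 to 1.47) at 40 min and 0.82 (0.07 to 1.59) at 60 min.

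The TAF promoters depended on TAF9. Their 16 regions gave 333 light and 77 heavy fragments untreated, 376 and 59 after 40 min and 400 and 91 after 60 min, for changes of -0.04 (-0.60 to 0.52) and 0.43 (-0.08 to 0.94). At 40 min the summed value and the median of single promoters, 0.31, differed in sign, and at 60 min the median was 0.18. The mean light and heavy -1 signal of TAF9 went from 2.90 and 1.11 rpm to 4.23 and 2.11 rpm and to 3.45 and 1.62 rpm (-0.33, -1.42 to 0.65, and -0.25, -1.26 to 0.65). Its NFR was not depleted, since the untreated signal there lay 0.94 log2 units above its 2 kb mean. Without it the summed change was 0.11 (-0.57 to 0.81) and 0.79 (0.16 to 1.41).

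TAF11, which pairs with TAF13 in TFIID, was the best covered TAF promoter with a higher value at both times, with 75.2 and 18.2, 69.9 and 8.17, and 95.8 and 17.2 fragments (0.40, -0.92 to 1.97, and 0.76, -0.30 to 2.00). TAF13 itself gave 36.4 and 7.33, 30.0 and 1.92, and 33.5 and 3.17 (0.69, -1.61 to 4.33, and 0.96, -0.78 to 4.19), so that the intervals of both partners included 0 at both times. TAF10 hardly differed at 60 min (0.18, -1.71 to 2.27). TAF1B had a lower value at 40 min, with 16.5 and 5.50 fragments against 7.50 and 7.17 (-1.65, -4.21 to 0.38), and back near its untreated value at 60 min with 11.2 and 5.00 (-0.07, -2.30 to 2.44).

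The GTF2 promoters had no summed -1 change beyond counting error at either time. Their 13 regions gave 219 light and 74 heavy fragments untreated, 234 and 44 after 40 min (0.24, -0.38 to 0.88) and 241 and 89 after 60 min (0.28, -0.26 to 0.82), with medians of 0.46 and 0.36. GTF2F1 held the most fragments of the subgroup, with 73.1 and 12 fragments untreated, 65.4 and 6.08 after 40 min and 73.8 and 26.4 after 60 min (0.17, -1.40 to 2.01, and -0.63, -1.92 to 0.48). Without it the summed change was 0.32 (-0.38 to 1.02) at 40 min and 0.59 (-0.04 to 1.22) at 60 min. GTF2H3 had more resistant values at both times, with 49.3 and 31.4, 38.2 and 23.9, and 29.9 and 37.8 fragments (-0.54, -1.66 to 0.47, and -0.53, -1.62 to 0.43). GTF2B stood on the other side in every comparison, with 35.7 and 1.25 fragments after 40 min and 43.4 and 4.33 after 60 min (1.63, -0.53 to 8.26, and 1.41, -0.30 to 4.36), while GTF2F2 gave 0.29 (-1.58 to 2.59) at 60 min. TBP itself yielded 3.83 and 0 fragments after 40 min and 0.667 and 0 after 60 min, too few to measure at the later time.

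**Figure D3:**
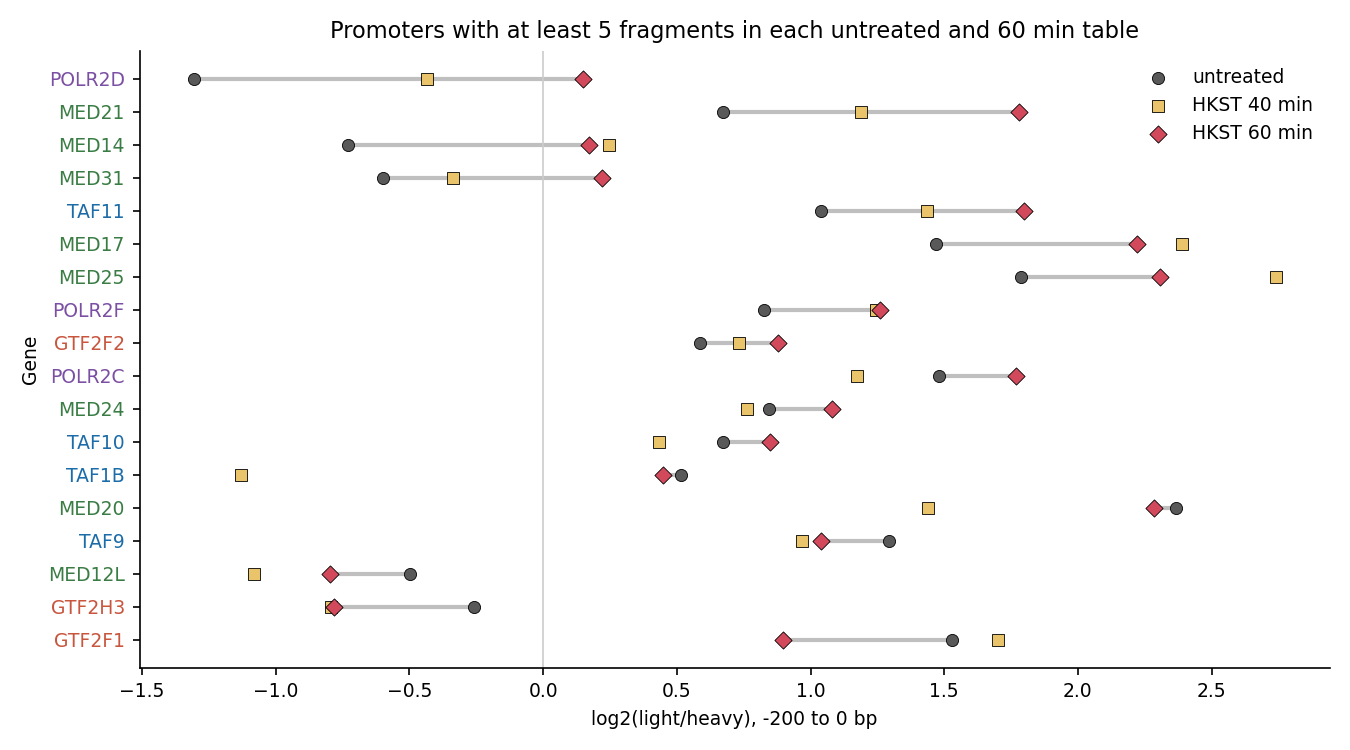
Sensitivity of the -1 nucleosome (log2 of light over heavy) of the 18 distinct promoters with at least 5 fragments in each untreated and 60 min table, ordered by their change at 60 min, with untreated (circles), 40 min (squares) and 60 min (diamonds) values and gene names coloured by subgroup. POLR2D moves from -1.31 to 0.15 at the top, and GTF2F1 from 1.53 to 0.90 at the bottom.

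The subgroups could not be told apart in the -1 window. Their averaged untreated profiles peaked upstream at -350 bp in TAF, -270 bp in POLR2, -220 bp in GTF2 and -200 bp in MED. The fixed window thus did not cover the same part of the profile in each. All 6 pairwise differences had intervals that include 0 at both times, the widest at 60 min being GTF2 against POLR2, at -0.52 (-1.36 to 0.32). In the NFR window the members as a whole were higher by 0.81 (0.36 to 1.26) at 40 min and 0.71 (0.33 to 1.09) at 60 min, against 0.02 and -0.01 over all promoters, and again no pair of subgroups differed beyond counting error. At 60 min the light signal in this window differed by 0.18 (-0.01 to 0.36) and the heavy signal by -0.53 (-0.86 to -0.21).

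At the +1 nucleosome some subgroups differed at 60 min. Over all members it rose by 0.27 (0.11 to 0.44) at 40 min and 0.34 (0.19 to 0.48) at 60 min, against 0.07 and 0.02 for all promoters. At 40 min all 6 pairwise differences between subgroups had intervals that include 0, and POLR2, at 0.57 (0.11 to 1.04), stood above GTF2, at 0.41 (-0.02 to 0.84). At 60 min the GTF2 promoters rose by 0.72 (0.35 to 1.09), more than the MED promoters, at 0.18 (-0.06 to 0.41), by 0.54 (0.12 to 0.97), and more than the TAF promoters, at 0.26 (-0.01 to 0.53), by 0.46 (0.02 to 0.90). In single GTF2 promoters 7 of 10 were above 0, led by GTF2A1 at 1.67, GTF2H5 at 1.40, GTF2B at 1.31 and GTF2H1 at 1.24, with GTF2E1 lowest at -1.04. POLR2 rose by 0.43 (0.04 to 0.82).

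Across the whole 2 kb the changes were small, at 0.04 for members at 40 min and 0.11 (0.07 to 0.16) at 60 min, against 0.01 and 0.02 over all promoters. Over the 4 windows and both times 5 of 48 comparisons between subgroups had intervals without 0, the other 3 being over 2 kb, where TAF exceeded MED by 0.19 (0.05 to 0.32) at 40 min and 0.13 (0.01 to 0.24) at 60 min, and POLR2 exceeded MED by 0.15 (0.01 to 0.28) at 60 min. No adjustment was made for the number of comparisons.

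**Figure D4:**
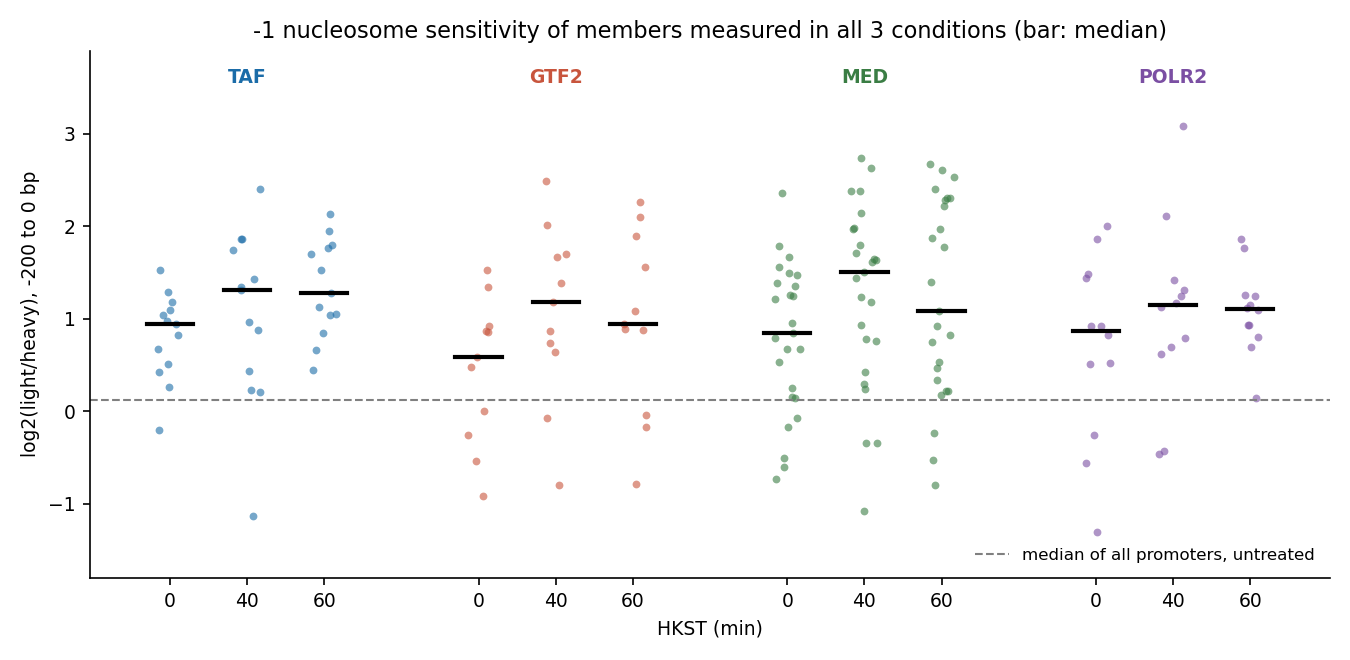
Sensitivity of the -1 nucleosome (log2 of light over heavy) at untreated, 40 and 60 min for each member promoter measured in all 3 conditions (13 TAF, 11 GTF2, 25 MED and 12 POLR2 distinct regions), with bars at the medians and a dashed line at the untreated median of all promoters, 0.12. Every bar stands above the dashed line, and the points of each subgroup overlap between conditions.

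A promoter's sensitivity carried over in part from 1 condition to the next. Over the members measured in both, Pearson's r of the -1 value was 0.59 between untreated and 40 min (63 regions), 0.49 between untreated and 60 min (61) and 0.69 between 40 and 60 min (74), as descriptions of promoters that share libraries and depth. The depth of the NFR was steadier, with r of 0.87 between untreated and 60 min over 72 regions, and was unrelated to -1 sensitivity in untreated cells (r of 0.04 over 64 regions). Members with a CCAAT box had a median change of 0.76 at 60 min (17 promoters) against 0.29 without (45), where all promoters gave 0.12 and 0.06. At 40 min the gap was smaller (0.55 against 0.40). Members with and without an ETS core gave 0.62 and 0.40 at 40 min, where all promoters gave 0.21 and 0.10. At 60 min the medians with and without an ETS core were 0.43 and 0.36, where all promoters gave 0.27 and 0.06. With and without a GC box they were 0.36 and 0.43, where all promoters gave 0.17 and -0.001. Members with an opposite-strand start within 1 kb gave 0.59 (12) against 0.29 (50) at 60 min, where all promoters gave 0.30 and 0.05.

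Genes of related complexes outside the rule, from lists chosen with earlier results of these data known, were read in the same way. TFIIH subunits with other symbols, which carry its helicase and kinase activities, were higher at both times, by 0.96 (0.21 to 1.74) and 1.07 (0.47 to 1.68) summed over 5 promoters. The helicase gene ERCC3 dominated them, with a sensitivity of 0.58 untreated, 1.66 after 40 min and 1.62 after 60 min from 39.2, 13 and 34.2 heavy fragments, and the intervals of its differences lay above 0 (1.08, 0.12 to 2.25, and 1.04, 0.29 to 1.89). At 60 min the cyclin gene CCNH had the highest value of that list, 1.96 (-1.23 to 9.46), and the helicase gene ERCC2 the only one below 0, -0.33. The Mediator kinase module promoters CCNC, CDK8 and CDK19 summed to -0.87 at 40 min and -0.29 at 60 min, with CCNC, the best covered, at 72.3 and 17.3, 60.0 and 15.7, and 73.7 and 34 fragments.

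The TBP regulators gave 0.49 (-1.64 to 2.71) and 0.68 (-1.15 to 2.48), with 0.70 and 1.00 at DR1 and 0.23 and 0.24 at BTAF1. The 26 pausing and elongation factor promoters gave 0.11 (-0.31 to 0.55) and 0.46 (0.09 to 0.83), with the highest values at PAF1 (1.40 and 2.32) and the lowest at NELFCD at 40 min (-0.89) and ELL3 at 60 min (-0.73). The 60 min interval of PAF1 lay above 0 (0.21 to 9.51), from 4.17 untreated and 1.00 later heavy fragments. Promoters of RNA polymerase I and III subunits and factors gave 0.13 (-0.23 to 0.48) and 0.19 (-0.11 to 0.49), between POLR3B at 1.92 and GTF3C3 at -1.81 at 40 min and between POLR1E at 1.54 and GTF3C3 at -1.28 at 60 min, all from tables with at most 5 heavy fragments. ZNRD1 of this list had intervals above 0 at both times (1.86, 0.28 to 4.79, and 1.43, 0.25 to 3.08). Its heavy fragments were 16.6 untreated, 2.92 after 40 min and 10.7 after 60 min. Among the members, the SL1 genes TAF1B and TAF1D summed to -0.69 at 40 min and 1.12 at 60 min, and the paralogs and variant copies, 8 regions, to -0.03 and -0.02. Without both, the members summed to 0.39 and 0.62.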

How the data were processed

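mTSS-seq, MNase-seq with sequence capture of promoters, was deposited for GM12878 as 8 tables, 1 for each of 4 conditions and 2 digests. The authors clipped adapters, aligned read pairs to hg19, discarded pairs that did not align uniquely and tallied fragment midpoints every 10 bp, each tally covering 60 bp, as depth-scaled reads (RPM). The submitters' processing notes name Bowtie2 2.2.2, SAMtools and bedtools. Removal of PCR duplicates is not given in the sources used here. The deposited RPM values are bins of 10 bp, in steps worth 0.5 fragment. All values lay within 0.05 of a whole step, from which fragment counts were recovered. A fragment enters 6 windows. Both replicates (16 samples in all) are pooled in the tables, so counting intervals stand in for replicate error and no test across samples was made. A share of 10.8% of bins in the complete tables had no value and was left out, and a window needed 50% of its bins.

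Sensitivity, calls and sums were computed as described with the results, with a pseudocount of 0.119 rpm (0.1 of the mean value). A call was a difference of at least 1 log2 unit, or an exact 95% conditional interval without 0. Sums counted each region once, and differences between summed groups have normal intervals on the log2 scale from the fragment counts. The members and lists were chosen with earlier results of these data known. Named are every member of the 20 min comparison, TBP, the 2 highest and 2 lowest differences of each subgroup at 40 and 60 min and the 2 most sensitive and 2 most resistant promoters of each in untreated cells, all with at least 5 fragments in every table used, and the extremes of each related list; others were chosen after their values were seen. The recovery of the fragment unit was tested on simulated data. The intervals were tested on simulated whole counts without PCR copies, at promoters with at least 5 fragments per condition. That test does not cover recovered counts or sparser promoters. GENCODE and RefSeq coordinates were compared on GRCh37, and sequences were read from that genome. Python 3.11.15, numpy 2.4.6, pandas 2.3.3, scipy 1.17.1, pyfaidx 0.9.0.4 and matplotlib 3.10.9 were used.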

Additional observations from a re-analysis of the deposited data

How the results depend on the processing

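Over 35 medians, levels and counts of member promoters, 29 values moved and 5 reversed under other settings. Medians and levels were called moved or reversed when they shifted further than the counting interval of the group's summed fragments extends to either side. This yardstick, called counting error below, is not the error of a median over promoters. Counts of promoters were not set against counting error. The other medians and levels lay within counting error, which is wide enough to hold a change of sign. For example, the TAF sum at 40 min, near 0 as reported, was 0.11 without TAF9 and 0.17 from -250 to -100 bp. The reversals beyond counting error all came with a minimum of 5 fragments in every table, which by construction leaves out promoters whose heavy count became low: the median change was then -0.33 at 20 min and -0.27 at 40 min for members, -0.33 for TAF and -0.18 for GTF2 at 40 min, and -0.53 for GTF2 at 60 min, and that of MED at 40 min was 0.088. Within counting error, the POLR2 median at 40 min became -0.31 there and the TAF median at 60 min -0.07. Few promoters remained there (1 at 20 min, 14 at 40 min and 19 at 60 min). Under it the promoters higher by at least 1 log2 unit numbered 0, 0 and 2 at 20, 40 and 60 min, and those lower 1 at 40 min and 0 at 60 min. With a pseudocount of 0.5 of the mean the members' median change was 0.31, 0.21 and 0.18 at 20, 40 and 60 min, that of MED was 0.21 at 40 min and 0.18 at 60 min, the untreated members' median was 0.39, and the promoters higher or lower by at least 1 numbered 0 at every time. With 0.05 of the mean, 24 were higher at 40 min and 5 lower, and 4 were lower at 60 min. A window from -250 to -100 bp gave a median of 0.16 for MED at 60 min, with 10 promoters higher and 4 lower by at least 1, and intervals above 0 at 1 promoter at 40 min and 2 at 60 min. A threshold of 0.5 log2 units gave 31 higher and 8 lower at 40 min, 29 and 9 at 60 min, and 1 lower at 20 min. Centring on the median of all promoters gave 5 lower at 40 min. The relative NFR signal was -2.06 in the heavy table alone and -2.30 from -150 to 0 bp. Leaving out the best covered promoter of each summed group, and its sum from -250 to -100 bp, were added after seeing the data. The cause of the other shifts was not tested. No paired analysis was possible because the deposited tables pool both replicates, and leaving out a replicate was impossible for the same reason. Most single promoters had too few heavy fragments to show a change of 1 log2 unit.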
